A study of Mus musculus with 18 samples.

Results

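The 37 genes described here encode enzymes and regulators of cholesterol synthesis (18 genes) and of sphingolipid synthesis and breakdown (19 genes), and were picked out of the deposited table of 27179 genes by their symbols, a list chosen with earlier results of these data known. All 37 had a row in the table, and 36 passed the filter on low counts and were tested. Their RNA was measured in half-brain tissue of 18 wild-type C57BL/6J mice, an inbred laboratory strain (spelled C57BL/J6 in the series' design text), aged 4 months, dosed by oral gavage with glyphosate, a herbicide, or with vehicle over 14 days. Vehicle was given to 5 mice (2 males and 3 females). The low dose of 125 mg/kg went to 5 mice (3 males and 2 females), the middle dose of 250 mg/kg to 4 (3 males and 1 female) and the high dose of 500 mg/kg to 4 (2 males and 2 females). The tissue is half-brain in the methods and bulk brain in the labels, while another passage of the study calls it hippocampal. Each library was made from total RNA of 1 mouse after removal of ribosomal RNA. The comparison asks whether the RNA of these lipid genes in the brain changed with the dose.

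Cholesterol cannot cross from the blood into the brain in useful amounts, so brain cells make their own. Synthesis runs from acetyl-CoA over mevalonate, isoprenoids, squalene and lanosterol to cholesterol, and its genes are switched on together by the factor SREBP2 (gene Srebf2) when sterols are low, while INSIG1 holds that factor back when sterols are high. Sphingolipid synthesis starts from serine and palmitoyl-CoA and passes through ceramide, which is turned into sphingomyelin, glucosylceramide or, in the oligodendrocytes that make myelin, galactosylceramide and its sulfated form. Myelin is rich in both cholesterol and galactosylceramide, and part of this RNA in brain tissue comes from those cells.

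Total counts per mouse ran from 3948096 to 11732885, with a median of 7789800, and the level of sex-linked genes matched the labelled sex in 18 of 18 mice. A pair of libraries, high-dose female G4 and vehicle female G9, stood apart, with median correlations to the other mice of 0.932 and 0.933 against 0.948 to 0.968 for the rest. The summed level of 10 markers of glutamatergic neurons, the excitatory neurons of cortex and hippocampus, was 424 CPM (counts per 1000000 counts) in G4 and 519 CPM in G9, against 1774 to 5590 CPM in the other 16 mice. The summed level of 15 markers of oligodendrocytes was 17409 CPM in G4 and 7120 CPM in G9, against 4256 to 10844 CPM in the others. The main values below are therefore also given without G4. Fewer values are given without G9, or without both, at the end. In these bulk samples fewer cells of a type and less RNA per cell cannot be told apart.

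Levels are given as CPM after TMM normalization, and between genes as CPM per kilobase of exon. Among the cholesterol genes, Hmgcs1, the HMG-CoA synthase that opens the mevalonate branch, had the highest level per length, 66.1 ± 10.8 CPM per kilobase (SD, n = 18). It was followed by Insig1, the sterol-dependent brake, at 51.1 ± 13, and by Msmo1, a methyl sterol oxidase of the steps after lanosterol, at 40.2 ± 9.36. Idi1, the isopentenyl diphosphate isomerase, stood at 29.1 ± 7.63. Srebf2 stood at 27.3 ± 4.85 CPM per kilobase. Next came Sqle (squalene epoxidase, 19.1 ± 3.97), Cyp51 (lanosterol demethylase, 15.6 ± 2.99), Sc5d (sterol desaturase, 13.6 ± 2.55) and Fdft1 (squalene synthase, 10.8 ± 1.76). The lowest were Mvk (mevalonate kinase) at 4.73 ± 0.753, Mvd (mevalonate diphosphate decarboxylase) at 3.75 ± 0.968 and Lss (lanosterol synthase) at 3.03 ± 0.428 CPM per kilobase. Neighbours in this order, over all 18 genes, overlapped in their range over the mice.

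**Figure D1:**
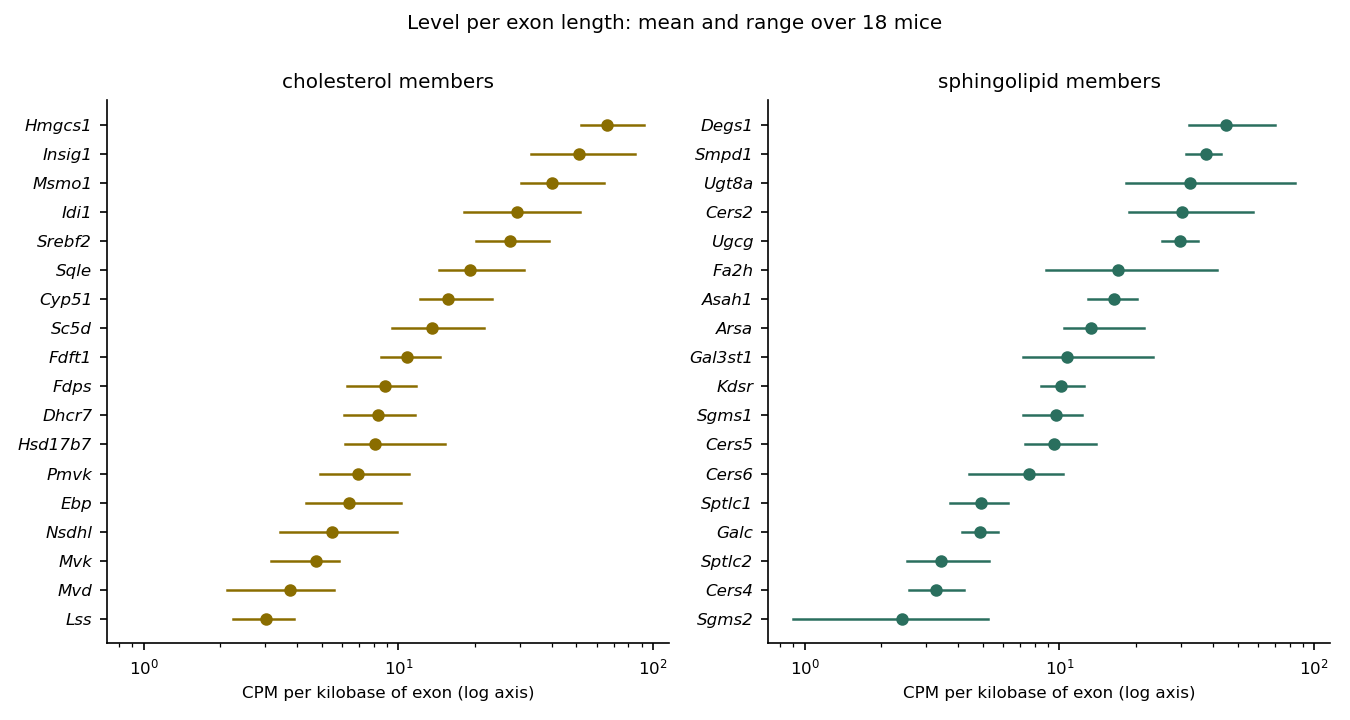
Level of each member per exon length, in CPM per kilobase on a log axis, with the mean (point) and the lowest to highest value (line) over 18 mice. The cholesterol members ran from Hmgcs1 at 66.1 down to Lss at 3.03, and the sphingolipid members from Degs1 at 44.9 down to Sgms2 at 2.42; Cers1, listed at 0, is not drawn.

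Among the sphingolipid genes the order began with Degs1, the desaturase that forms ceramide from dihydroceramide, at 44.9 ± 8.58 CPM per kilobase (SD, n = 18). Smpd1, the acid sphingomyelinase of the lysosome, stood at 37.4 ± 3.99, and Ugt8a, which adds galactose to ceramide in oligodendrocytes, at 32.5 ± 14.9. Cers2, the ceramide synthase for very long acyl chains, was at 30.2 ± 8.88 and Ugcg, the glucosylceramide synthase, at 29.8 ± 2.98 CPM per kilobase. Fa2h, the fatty acid hydroxylase of myelin lipids, had 17 ± 7.58, and Gal3st1, which sulfates galactosylceramide, 10.7 ± 4.18. Neighbours again overlapped in range among the 18 genes with counts. Ugt8a, Fa2h and Gal3st1 had wide spreads between mice, whereas Ugcg and Smpd1 had narrow ones. Sgms2, a sphingomyelin synthase, was the lowest of the genes with counts, at 2.42 ± 1 CPM per kilobase. Cers1, the ceramide synthase known from neurons, was listed at 0 in all 18 mice. RefSeq places Cers1 (chromosome 8, 70315775 to 70331588) on the same stretch as Gdf1 (chromosome 8, 70315775 to 70331592), which was also listed at 0 in all 18 mice, and how the authors' counting treated reads that fall in both genes is not given in the sources used here. No level or fold is given for Cers1.

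The promoters were searched for letters that the choice of genes did not use. RefSeq promoter windows (build GRCm38.p6) were at hand for 32 of the 37 members, 15 cholesterol and 17 sphingolipid genes. The cholesterol genes Fdft1, Fdps and Sqle and the sphingolipid genes Asah1 and Fa2h had no window and were not searched. The 250 bases before each start were searched on both strands for TCACNCCAC (a form of the sterol regulatory element bound by SREBP2), CCAAT (bound by NF-Y) and GGGCGG (bound by Sp1). CCAAT was found before 15 of 15 cholesterol genes and 8 of 17 sphingolipid genes, and before 37.5% of the 27025 genes with a window. GGGCGG was found before 14 of 15 and 13 of 17, against 35.4% of all genes. TCACNCCAC was found only before Hmgcs1 among the 32 members, at position -137 from the start, and before 1.22% of all genes. Some genes have several start sites, and a gene counts if any of its windows held the letters. The 27025 genes were not limited to those with counts, so their shares are not matched to the members in level or type of gene. The windows of the cholesterol gene with the highest level per length, of a late step, of the cholesterol member with the smallest p in the dose regression and of the galactosylceramide synthase are shown from 5′ to 3′ on the strand of the gene, with matches to these motifs on either strand in capitals (CCAAT reads ATTGG and GGGCGG reads CCGCCC on the other strand). The Ugt8a window is shorter because bases inside the annotated gene were left out.
Hmgcs1 (chr13:119690101-119690350, + strand): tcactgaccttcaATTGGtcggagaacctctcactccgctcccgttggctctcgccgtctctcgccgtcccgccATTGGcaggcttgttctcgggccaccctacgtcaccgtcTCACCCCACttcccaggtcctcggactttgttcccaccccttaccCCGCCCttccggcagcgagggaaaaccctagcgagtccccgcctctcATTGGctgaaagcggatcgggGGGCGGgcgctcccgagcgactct
Msmo1 (chr8:64733579-64733828, - strand): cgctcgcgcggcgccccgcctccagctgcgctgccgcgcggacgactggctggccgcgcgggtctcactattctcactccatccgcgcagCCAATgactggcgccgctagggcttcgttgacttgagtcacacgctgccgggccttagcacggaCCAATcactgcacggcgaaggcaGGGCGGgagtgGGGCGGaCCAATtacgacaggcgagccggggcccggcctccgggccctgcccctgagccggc
Sc5d (chr9:42264301-42264550, - strand): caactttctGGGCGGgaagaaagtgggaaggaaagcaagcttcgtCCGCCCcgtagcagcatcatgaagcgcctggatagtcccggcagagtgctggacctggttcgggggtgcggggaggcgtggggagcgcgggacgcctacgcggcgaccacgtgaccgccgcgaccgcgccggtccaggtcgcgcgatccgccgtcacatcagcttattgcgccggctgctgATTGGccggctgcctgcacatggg
Ugt8a (chr3:125938683-125938902, - strand): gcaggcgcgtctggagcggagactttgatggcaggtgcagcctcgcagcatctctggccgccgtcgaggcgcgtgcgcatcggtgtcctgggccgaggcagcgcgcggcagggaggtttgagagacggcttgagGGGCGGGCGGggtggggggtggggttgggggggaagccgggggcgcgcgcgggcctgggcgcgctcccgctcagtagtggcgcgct

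The Hmgcs1 and Msmo1 windows each held 3 CCAAT matches, and the Sc5d window held 1 at -24. The Ugt8a stretch shown held none, and its GGGCGG matches at -116 and -112 overlap. These matches are descriptions of letters, not of binding.

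Across the doses no cholesterol gene passed the test. In the dose regression, which fits the change in log2 level from 0 to 500 mg/kg along a straight line with sex as a covariate, 0 of 18 cholesterol members were called by edgeR at an adjusted p under 0.05, and 0 by DESeq2 and by limma-voom. These tools called 0.290%, 1.28% and 0.315% of all genes tested. At an unadjusted p under 0.05 stood 1 of 18 cholesterol members (5.56%), against 13.2% of all genes. The median slope of the 18 was 0.08, with 13 positive and 5 negative and a range from -0.18 to 0.33, beside a median of 0.01 over all genes tested. Without G4 the median was -0.14, with 2 positive and 16 negative slopes, and 0 of 18 had an unadjusted p under 0.05 (8.23% of all genes).

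Of the enzymes of the mevalonate steps, Hmgcs1 stood at 181, 223, 228, 239 and 249 CPM in the vehicle mice, 211, 239, 267, 278 and 281 in the low-dose mice, 193, 197, 200.3 and 206 in the middle-dose mice and 183, 215, 233 and 319.8 in the high-dose mice. The middle-dose mice lay close together inside the vehicle range, and G4 held the highest value of the 18. Idi1 was at 54.7, 69.7, 81.4, 97.2 and 109 CPM in the vehicle mice, 75.1, 81, 92.9, 104 and 107 in the low-dose mice, 63.2, 69.9, 73.8 and 96.9 in the middle-dose mice and 75, 82.6, 94.5 and 157 in the high-dose mice, again with G4 on top and the other mice overlapping. Mvk (7.03 to 8.98 CPM), Pmvk, the phosphomevalonate kinase (11.3 to 12.7 CPM), Mvd (5.36 to 8.19 CPM) and Fdps, the farnesyl diphosphate synthase (12.1 to 13.4 CPM), had low levels, given here as the range of the 4 group means, and their groups overlapped. The median slope of the 6 genes of these steps was 0.01.

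For the steps to lanosterol the groups overlapped as well, and the median slope of the 3 genes was 0.00. Fdft1 was at 39.8 ± 5.15 CPM with vehicle, 43.2 ± 6.30 with the low dose, 36.5 ± 3.33 with the middle dose and 38.9 ± 10.3 with the high dose. Sqle, a rate-controlling step, was at 39.7, 52.1, 56.5, 57.3 and 60.8 CPM in the vehicle mice, 44.8, 54.5, 56.3, 59.8 and 60.1 in the low-dose mice, 42.3, 42.9, 43 and 44.7 in the middle-dose mice and 43.1, 47.9, 57.6 and 85.7 in the high-dose mice. The middle-dose Sqle values lay close together, above the lowest vehicle mouse and below the other 4, and G4 alone exceeded every other mouse. Lss was at 14.6 ± 2.25 CPM with vehicle, 13 ± 1.99 with the low dose, 15 ± 2.01 with the middle dose and 14 ± 1.72 with the high dose.

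Sc5d, on chromosome 9, 42251592 to 42264300, was the cholesterol member with the smallest p, at 45.3, 58.8, 65.2, 72.5 and 73.5 CPM in the vehicle mice, 52.5, 54.9, 63.2, 63.5 and 64.1 in the low-dose mice, 56.8, 60.2, 62.5 and 69.6 in the middle-dose mice and 63.5, 67, 74.5 and 104 in the high-dose mice. Its group means were 63.1 ± 11.6 CPM with vehicle, 59.6 ± 5.50 with the low dose, 62.2 ± 5.39 with the middle dose and 77.2 ± 18.3 with the high dose. The slope was 0.33 (SE 0.14, edgeR adjusted p = 0.33) after Benjamini-Hochberg correction over 15863 genes. Of the high-dose mice G4 lay far above the vehicle mice and G90 just above them, while the other 2 overlapped. Without G4 the Sc5d slope was 0.14 (edgeR adjusted p = 0.77). The 7 genes from lanosterol to cholesterol had a median slope of 0.14, with 6 positive. Hsd17b7, a ketoreductase of the methyl removal steps, had 70.5 CPM in G4 and 28.5 to 47.1 CPM in the other 17 mice. Cyp51, Msmo1 and Dhcr7, the last reductase of the pathway, overlapped between the groups. Their group means ran from 52.1 to 68.5, from 70.2 to 88.6 and from 21.2 to 25.2 CPM. The groups also overlapped for Nsdhl, a sterol dehydrogenase, and Ebp, the sterol isomerase, both X-linked genes. Their group means ran from 10.2 to 14 and from 9.68 to 12.3 CPM.

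The regulators did not pass the test either. Srebf2 was at 102, 119.6, 143, 154 and 164 CPM in the vehicle mice, 137, 145, 152, 171 and 198 in the low-dose mice, 111, 122, 122 and 142 in the middle-dose mice and 105, 122, 136 and 152 in the high-dose mice. Its slope was -0.18 (SE 0.17, edgeR adjusted p = 0.68), the lowest of the 18, and the groups overlapped. Insig1 was at 89.5, 131, 134, 179.8 and 192 CPM in the vehicle mice, 111, 117, 138, 148 and 161 in the low-dose mice, 97.5, 108, 109 and 133 in the middle-dose mice and 129.9, 130.0, 142 and 229.5 in the high-dose mice. G4 had the highest Insig1 level and vehicle mouse G1 the lowest, with all other mice between them.

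**Figure D2:**
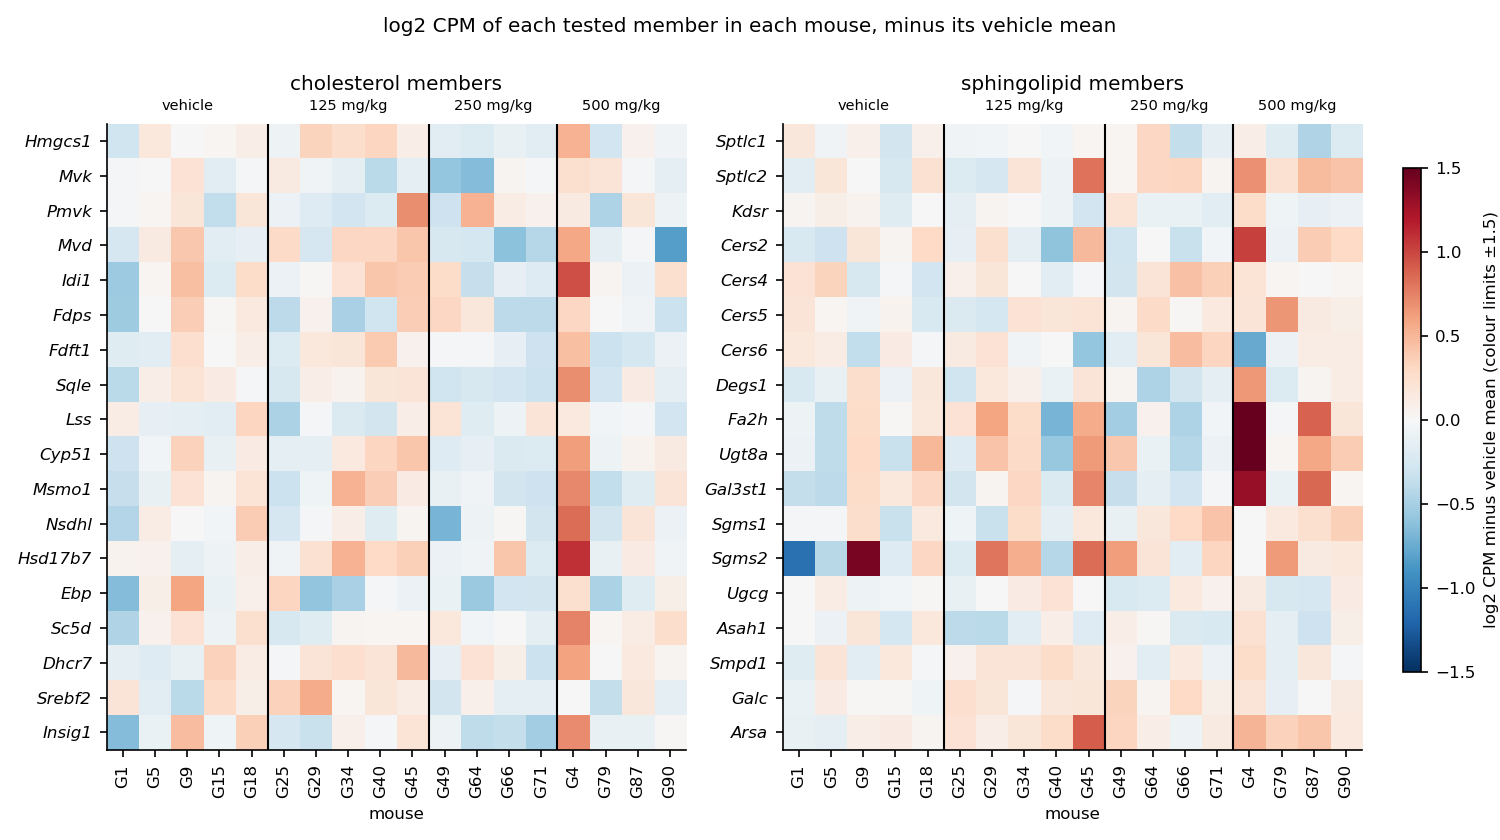
log2 CPM of each of the 36 tested members (rows, by role) in each of the 18 mice (columns, by dose), minus the mean of the vehicle mice, with red for higher and blue for lower and colour limits at ±1.5. The G4 column in the high-dose block is the highest of 18 mice for 13 of 18 cholesterol and 8 of 18 sphingolipid members. The G1 column of the vehicle group is the lowest for 8 of 18 cholesterol members. The same counts over all genes were not made.

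In their mean level the cholesterol genes were highest in G4 and lowest in G1. Relative to the vehicle mean, the mean log2 level of the 18 genes ran from -0.27 (G1) to 0.17 with vehicle, from -0.10 to 0.21 with the low dose, from -0.22 to -0.12 with the middle dose and from -0.17 to 0.53 (G4) with the high dose. Summed over the 18 genes, G4 had 1512 CPM and the other 3 high-dose mice 878 to 1018 CPM, inside the vehicle range of 829 to 1130 CPM. G4 held the highest value of all 18 mice for 13 of the 18 genes. How often G4 was the highest mouse over all genes was not counted, so this count cannot be read as particular to these genes. All 4 middle-dose mice stood between 851 and 941 CPM, in the lower part of the vehicle range.

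Among the sphingolipid genes none passed the test across the doses either, and 6 were at an unadjusted p under 0.05. In the dose regression 0 of 18 tested members were called by edgeR, by DESeq2 or by limma-voom. At an unadjusted p under 0.05 stood 6 of 18 (33.3%), all with positive slopes, against the same 13.2% of all genes. The 6 are Ugt8a, Sptlc2, Fa2h, Cers2, Cers5 and Gal3st1. The median slope of the 18 was 0.11, with 15 positive and 3 negative, beside 0.01 over all genes tested. Without G4 there were 0 of 18 at an unadjusted p under 0.05, with 11 positive and 7 negative slopes and a median of 0.12, beside 8.23% of all genes. With the number that opens each sample title as a block, 0 of 18 cholesterol and 0 of 18 sphingolipid members had an unadjusted p under 0.05, against 2.33% of all genes, with medians of -0.11 and 0.15. In this fit the slope was 1.05 (SE 0.62) for Ugt8a, 0.43 (SE 0.37) for Sptlc2 and 0.21 (SE 0.65) for Fa2h. It was 0.24 (SE 0.50) for Cers2, -0.11 (SE 0.26) for Cers5 and 0.16 (SE 0.56) for Gal3st1. These SEs exceed those of the fit without the block, so the count of 0 alone does not show that the slopes vanished. The labels do not say what that number is, and dose varies within few of its values.

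The genes of galactosylceramide and sulfatide had the largest slopes. Ugt8a, on chromosome 3, 125865272 to 125938682, stood at 77.6, 80.3, 95.4, 124 and 142 CPM in the vehicle mice, 68.3, 88.1, 123, 136 and 158 in the low-dose mice, 74.9, 94.3, 94.9 and 134 in the middle-dose mice and 103, 131, 151 and 314 in the high-dose mice. A single mouse, G4, was far above all others, and G87 also lay above the vehicle range. The Ugt8a slope was 0.72 (SE 0.26, 95% interval 0.16 to 1.27, edgeR adjusted p = 0.26) with Benjamini-Hochberg correction. Fa2h, on chromosome 8, 111345138 to 111393821, stood at 27.5, 33.9, 36.1, 40 and 43.2 CPM in the vehicle mice, 22.1, 41.4, 43.1, 52.7 and 53.7 in the low-dose mice, 24.9, 25.8, 34.6 and 37.4 in the middle-dose mice and 35.4, 40.4, 66.1 and 104 in the high-dose mice. Here G4 and G87 lay above all vehicle mice and the other 2 high-dose mice inside their range. The Fa2h slope was 0.70 (SE 0.28, edgeR adjusted p = 0.29). Gal3st1, on chromosome 11, 3983636 to 3999328, stood at 14.6, 14.9, 21.4, 23.3 and 23.7 CPM in the vehicle mice, 15.9, 16.5, 19.7, 23.8 and 31.7 in the low-dose mice, 15, 15.7, 17.4 and 18.8 in the middle-dose mice and 17.9, 19.5, 34.8 and 47.5 in the high-dose mice. The same 2 mice were above the vehicle range, and the Gal3st1 slope was 0.57 (SE 0.26, edgeR adjusted p = 0.36). Without G4 the slopes of Ugt8a, Fa2h and Gal3st1 were 0.29, 0.29 and 0.18, with edgeR adjusted p of 0.76, 0.78 and 0.87. Ugt8a, Gal3st1 and Sptlc2 overlap the annotated genes Gm40145, Gm46265 and Gm33444. Since the strand setting of the counting is not given in the sources used here, reads from such partners cannot be told apart. The same limit holds for Fdft1 (with Ctsb), Asah1 (with Frg1), Srebf2, Insig1, Mvd, Fdps, Lss, Cers6, Sgms1, Sgms2 and Smpd1, whose spans also overlap annotated genes.

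**Figure D3:**
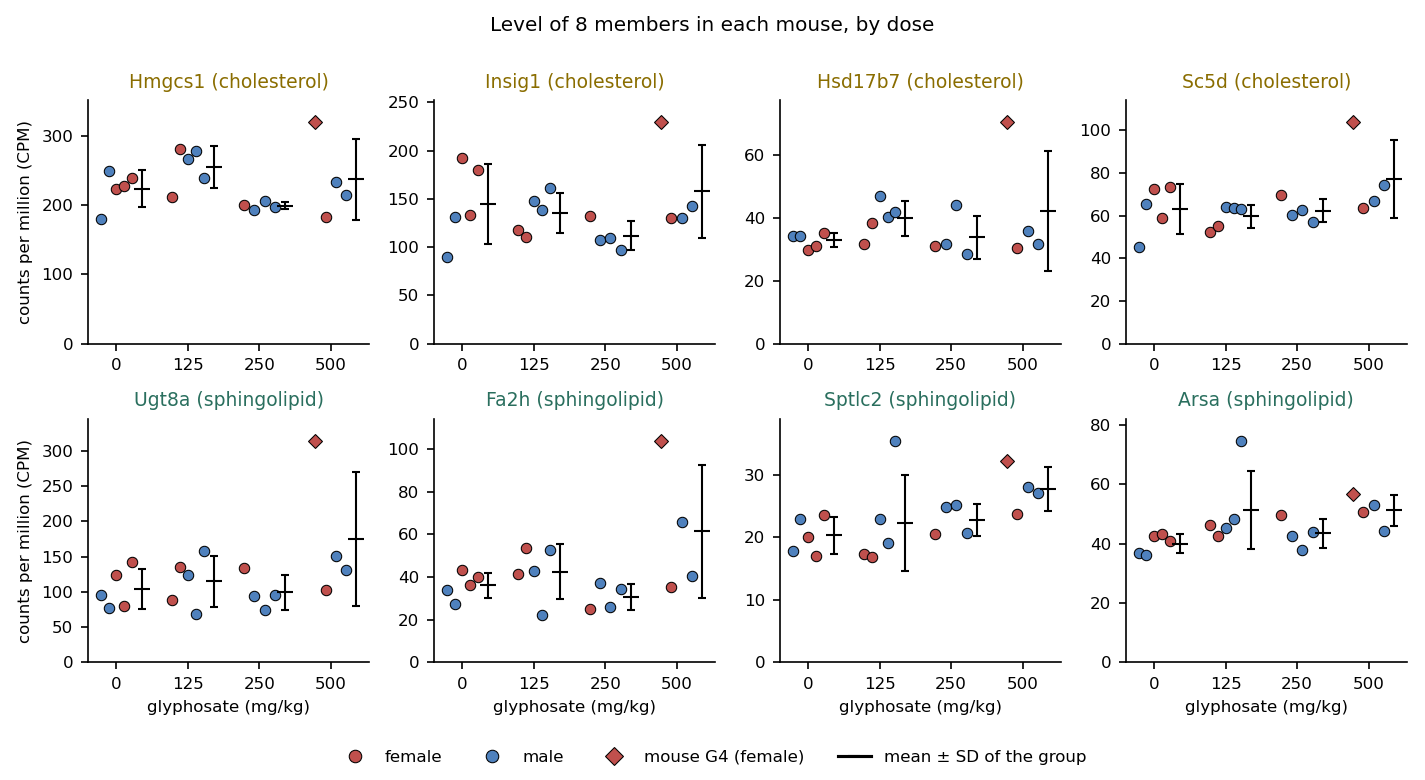
CPM (vertical axis, from 0) of 4 cholesterol and 4 sphingolipid members in each mouse against the glyphosate dose in mg/kg, with females in red, males in blue, mouse G4 as a diamond and the group mean with its SD beside the points. G4 stands above all other mice in Hmgcs1, Insig1, Hsd17b7, Sc5d, Ugt8a and Fa2h, while in Sptlc2 and Arsa all 4 high-dose mice lie above all 5 vehicle mice.

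The first step of the pathway, serine palmitoyltransferase, is built of SPTLC1 and SPTLC2, whose genes had slopes of opposite sign. Sptlc2, on chromosome 12, 87305058 to 87388355, stood at 17.1, 17.9, 20.1, 22.8 and 23.5 CPM in the vehicle mice, 16.9, 17.4, 19, 23 and 35.4 in the low-dose mice, 20.5, 20.7, 24.8 and 25.2 in the middle-dose mice and 23.6, 27.1, 28 and 32.3 in the high-dose mice. All 4 high-dose mice lay above all 5 vehicle mice, the lowest of them at 23.6 CPM against 23.5 CPM in the highest vehicle mouse, and low-dose mouse G45 was the highest of all. The Sptlc2 slope was 0.43 (SE 0.17, edgeR adjusted p = 0.28). Without G4 the slope was 0.28 (edgeR adjusted p = 0.68), and without G45 it was 0.49 (edgeR adjusted p = 0.090). Sptlc1 (group means of 11.8 to 13.3 CPM) had the lowest slope of the 18, -0.17, with an edgeR adjusted p of 0.64. Kdsr, the ketosphinganine reductase of the next step, was at 57.2 ± 4 CPM with vehicle, 53.8 ± 4.72 with the low dose, 55.7 ± 6.69 with the middle dose and 57.5 ± 7.82 with the high dose, and its groups overlapped.

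Of the ceramide synthases, Cers2, on chromosome 3, 95314771 to 95323599, stood at 50.6, 53.6, 64.7, 71.4 and 77.3 CPM in the vehicle mice, 41.4, 56.9, 57.3, 73.8 and 87.6 in the low-dose mice, 49.9, 50.8, 61 and 62.7 in the middle-dose mice and 59, 77.1, 81.7 and 128 in the high-dose mice. G4 and G87 lay above the vehicle mice. The Cers2 slope was 0.45 (SE 0.20, edgeR adjusted p = 0.35), and without G4 it was 0.18 (edgeR adjusted p = 0.81). Cers2 overlaps LOC115489748, Anxa9 and Setdb1 in the annotation. Cers5, on chromosome 15, 99735592 to 99772515, stood at 15.7, 17.7, 18.8, 19 and 21.1 CPM in the vehicle mice, 15.3, 15.9, 20.9, 21.3 and 21.4 in the low-dose mice, 18.6, 19, 20.4 and 22.4 in the middle-dose mice and 19.6, 20.2, 21.1 and 29.2 in the high-dose mice. Here the high mouse was G79, also a high-dose mouse, and the other 3 overlapped the vehicle mice. The Cers5 slope was 0.29 (SE 0.13, edgeR adjusted p = 0.35), and without G79 it was 0.10 (edgeR adjusted p = 0.75). Cers4, Cers6 and the desaturase gene Degs1 overlapped between groups. Their group means ran from 30 to 34.1, from 48.6 to 61.3 and from 79.7 to 104 CPM. G4 was the lowest of the 18 mice for Cers6, at 31.1 CPM, and the highest for Degs1.

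Of the 3 genes that turn ceramide into sphingomyelin or glucosylceramide, 0 had an unadjusted p under 0.05 by edgeR and 0 were called by any of the 3 tools. Sgms1, the main sphingomyelin synthase of the Golgi, was at 42.2 ± 6.43 CPM with vehicle, 41.6 ± 6.94 with the low dose, 48.4 ± 7.45 with the middle dose and 47.7 ± 5.11 with the high dose. Sgms2 was at 13.7 ± 9.93 CPM with vehicle, 15 ± 5.54 with the low dose, 13.7 ± 3.02 with the middle dose and 13.6 ± 2.86 with the high dose, and its spread in the vehicle group rests on mouse G9 at 30.5 CPM against 5.24 to 14.1 in the other 4. Ugcg was at 120.4 ± 5.98 CPM with vehicle, 125 ± 11.1 with the low dose, 116 ± 15.3 with the middle dose and 116 ± 17.2 with the high dose. For Ugcg the 95% interval of the slope ran from -0.30 to 0.14.

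The lysosomal enzymes act in the opposite direction, breakdown. Arsa, the arylsulfatase that removes sulfate from sulfatide, on chromosome 15, 89472476 to 89477424, is described here after its values were seen, since its dose slope of 0.25 (SE 0.16, edgeR adjusted p = 0.53) falls outside the rule for full statistics. It stood at 36.3, 37, 41, 42.7 and 43.4 CPM in the vehicle mice, 42.6, 45.3, 46.4, 48.4 and 74.7 in the low-dose mice, 37.9, 42.7, 43.9 and 49.8 in the middle-dose mice and 44.2, 50.6, 53.1 and 56.9 in the high-dose mice. All 4 high-dose mice lay above the highest vehicle mouse, whose value was 43.4 CPM. So did 4 of 5 low-dose and 2 of 4 middle-dose mice, while the others overlapped the vehicle mice. For 3 of 36 tested members (8.33%) at least 4 of the 5 low-dose mice lay above all vehicle mice, against 4.21% of all genes. These members were Arsa, Galc and Hsd17b7. Arsa and Sptlc2 were the 2 of 36 tested members with every high-dose mouse above all vehicle mice, which was so for 2.32% of all genes; no member had all of them below, which was so for 0.933%. Arsa overlaps C230037L18Rik in the annotation. Asah1, the acid ceramidase, Smpd1 and Galc, which removes galactose from galactosylceramide, overlapped between groups. Their group means ran from 41.4 to 47.8, from 85.6 to 97.4 and from 17.4 to 19.9 CPM.

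**Figure D4:**
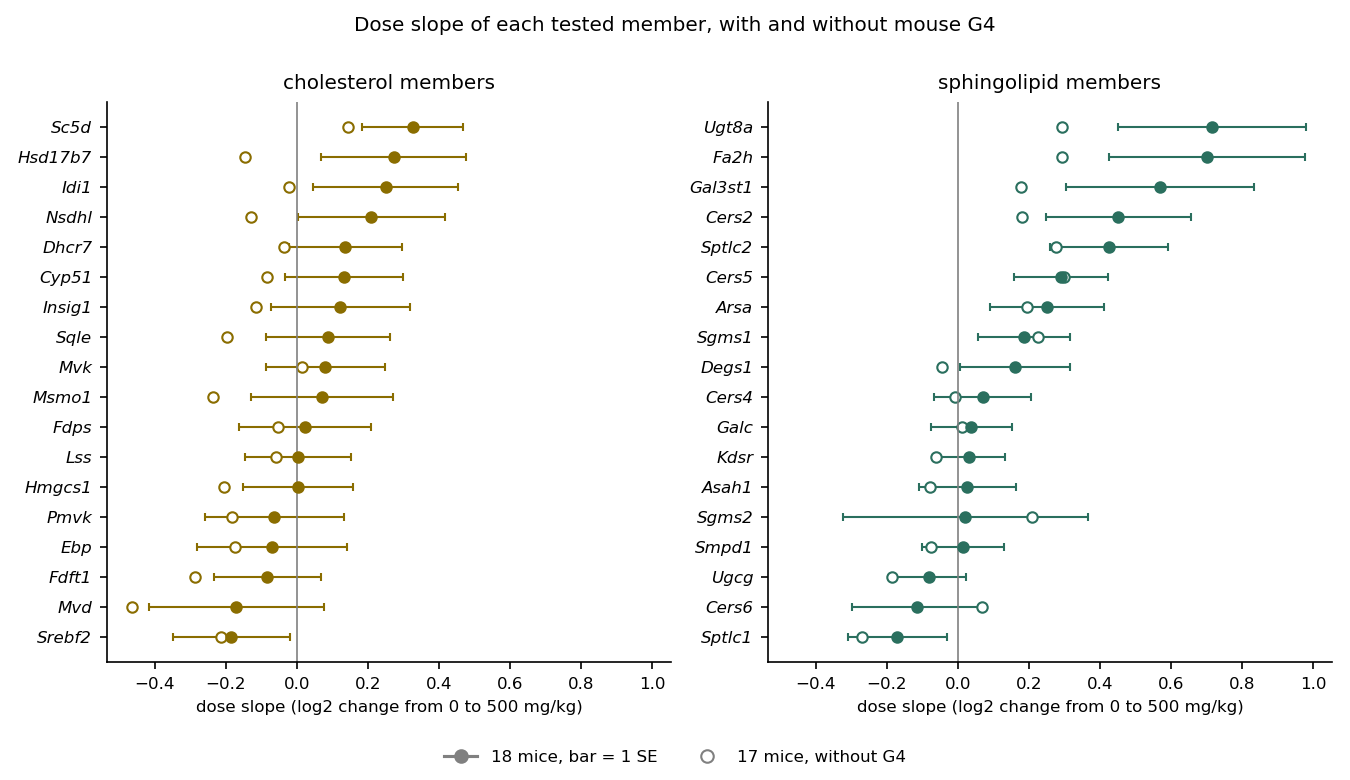
Dose slope (log2 change from 0 to 500 mg/kg, with sex as a covariate) of each tested member, with all 18 mice (filled, bar 1 SE) and without mouse G4 (open). Without G4 the open points of 16 of 18 cholesterol members lie below 0, and those of Ugt8a and Fa2h fall from 0.72 and 0.70 to 0.29.

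Each dose was also set against vehicle, in fits that share the vehicle mice. For the high dose 0 of 36 tested members were called by edgeR (0.0189% of all genes) and 0 by DESeq2 (0.906%). At an unadjusted p under 0.05 were 0 of 18 cholesterol members and 6 of 18 sphingolipid members, against 11.6% of all genes. The log2 differences of these 6 were 0.79 for Fa2h (SE 0.28), 0.78 for Ugt8a (SE 0.28), 0.63 for Gal3st1 (SE 0.27), 0.47 for Cers2 (SE 0.21), 0.43 for Sptlc2 (SE 0.18) and 0.36 for Arsa (SE 0.15). The median differences at this dose were 0.12 for the cholesterol and 0.13 for the sphingolipid members, beside 0.00 over all genes. Without G4 there were 0 of 18 sphingolipid members at an unadjusted p under 0.05 (6.54% of all genes), and the medians were -0.11 and 0.10.

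For the low dose 0 of 36 members were called by edgeR (0% of all genes) and 0 by DESeq2 (0.184%). Arsa alone had an unadjusted p under 0.05, which 11.2% of all genes had, with a log2 difference of 0.38 (SE 0.14). It rests in part on mouse G45, at 74.7 CPM, and without that mouse the difference was 0.21 (edgeR adjusted p = 0.45). At this dose all 7 microglia markers stood above vehicle with a median log2 difference of 0.36, and 3 had an unadjusted p under 0.05, 0 were called by edgeR and 1 by DESeq2. Their summed level ran from 234 to 302 CPM in the 5 low-dose mice and from 128 to 228 CPM in the 5 vehicle mice. All 15 oligodendrocyte markers stood above vehicle at this dose as well, with a median log2 difference of 0.28 and 0 at an unadjusted p under 0.05. Without G45 that median was 0.088, with 11 markers above vehicle and 4 below. The part of either marker list in the Arsa value was not tested. The medians were 0.09 for the cholesterol and 0.05 for the sphingolipid members. For the middle dose 0 of 36 members were called by either tool, as 0% of all genes were, and 0 of 36 had an unadjusted p under 0.05 (3.76% of all genes). There 13 of 18 cholesterol members stood below vehicle, with a median of -0.14, and 9 of 18 sphingolipid members did, with a median of 0.02.

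In a test of any difference among the 4 groups edgeR called 0 of 36 members (0.0441% of all genes) and DESeq2 0 (3.16%), and Fa2h alone had an unadjusted p under 0.05 (edgeR adjusted p = 0.27), as 15% of all genes did. In a test of curvature, meaning group means off the straight line over dose, edgeR called 0 members (0.00630% of all genes) and DESeq2 0 (0.970%), and 0 of 36 had an unadjusted p under 0.05, as 11.7% of all genes did.

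Males and females were compared in the same fit. For the sex difference edgeR called 0 of 36 members (0.0441% of all genes) and DESeq2 0 (0.0825%), and 0 of 36 had an unadjusted p under 0.05 (7.99%). Of the cholesterol members 16 of 18 stood lower in males, with a median log2 difference of -0.07, and without G4 10 of 18 did. For a difference of the dose slope between the sexes edgeR and DESeq2 called 0 members (0% of all genes each), and 1.65% of all genes had an unadjusted p under 0.05. Among them were Hsd17b7, whose slope in males was lower than in females by a log2 difference of -0.82 (SE 0.38), and Cers5, at -0.60 (SE 0.24). Both had an edgeR adjusted p of 1. These values moved with single high-dose females: the Hsd17b7 value was -0.13 without G4 and -1.22 without G79, and the Cers5 value was -0.33 without G79 and -0.78 without G4.

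The other genes of these pathways were described from lists. Of 10 further genes of cholesterol synthesis and its control, 0 were called by edgeR or DESeq2 in the dose regression and 0 had an unadjusted p under 0.05, with a median slope of 0.06, and -0.029 without G4. For these lists too the shares over all genes are 13.2% at an unadjusted p under 0.05 and 0.290% (edgeR) and 1.28% (DESeq2) called, and without G4 they are to be read against 8.23%. Of 14 genes of cholesterol uptake, transport and turnover, 0 were called by edgeR and 1 by DESeq2, and 4 (1 without G4) had an unadjusted p under 0.05. Mylip, which marks the LDL receptor for degradation, had a slope of -0.56 (SE 0.14, edgeR adjusted p = 0.085). Cyp27a1 and Cyp46a1, which hydroxylate cholesterol for export, had slopes of 0.90 (SE 0.33) and -0.78 (SE 0.31), with edgeR adjusted p of 0.24 and 0.29. Without G4 the slopes of Mylip, Cyp27a1 and Cyp46a1 were -0.50, 0.47 and -0.59. Cyp46a1 is known from neurons.

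Of 13 tested of 15 further genes of sphingolipid synthesis, 0 were called by edgeR or DESeq2 and 2 (1 without G4) had an unadjusted p under 0.05. These were St8sia1, a ganglioside sialyltransferase, with a slope of 0.54 (SE 0.16), and Elovl1, which elongates very long fatty acids, with 0.52 (SE 0.19). Of 19 tested of 20 further genes of sphingolipid breakdown and sphingosine 1-phosphate, 0 were called by either tool, and 4 (1 without G4) had an unadjusted p under 0.05, all positive. Acer3 and Acer2, which encode ceramidases, were among them, with slopes of 0.53 (SE 0.16) and 1.02 (SE 0.33), and so was Asah2, also a ceramidase gene, with 0.94 (SE 0.32). Without G4 the slopes were 0.42 for St8sia1, 0.30 for Elovl1, 0.30 for Acer3, 0.95 for Acer2 and 0.47 for Asah2.

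Markers of the cells that make myelin were high in the same mice as the galactosylceramide genes. All 15 oligodendrocyte markers had positive dose slopes with a median of 0.71; 12 had an unadjusted p under 0.05, 1 was called by edgeR (Plekhh1, slope 1.04, SE 0.22, adjusted p = 0.045) and 5 by DESeq2, against the 13.2%, 0.290% and 1.28% of all genes. Their summed level ran from 4290 to 7704 CPM with vehicle, 4256 to 10195 with the low dose, 4831 to 7585 with the middle dose and 6232 to 17409 with the high dose. Without G4 their median slope was 0.33, with 13 positive, 2 negative, 4 at an unadjusted p under 0.05 (8.23% of all genes) and 0 called by edgeR (Plekhh1 slope 0.81, adjusted p = 0.35). The summed level of Ugt8a, Fa2h and Gal3st1 followed the same mice, with 466 CPM in G4, 252 in G87 and 242 in G45, the same 3 mice that were highest for the oligodendrocyte markers. With the mean level of the 15 markers as a covariate, the slopes of Ugt8a, Fa2h, Gal3st1 and Cers2 were 0.05, -0.068, -0.087 and -0.066, and those of Sptlc2 and Cers5 were 0.20 and 0.35. In that fit 1 of 36 members, Cers5, had an unadjusted p under 0.05 (edgeR adjusted p = 0.49), against 9.57% of all genes. The markers were measured in the same libraries and had positive dose slopes themselves, so that fit cannot tell their part from that of the dose. The part of the marker levels in the values of the members was not tested.

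**Figure D5:**
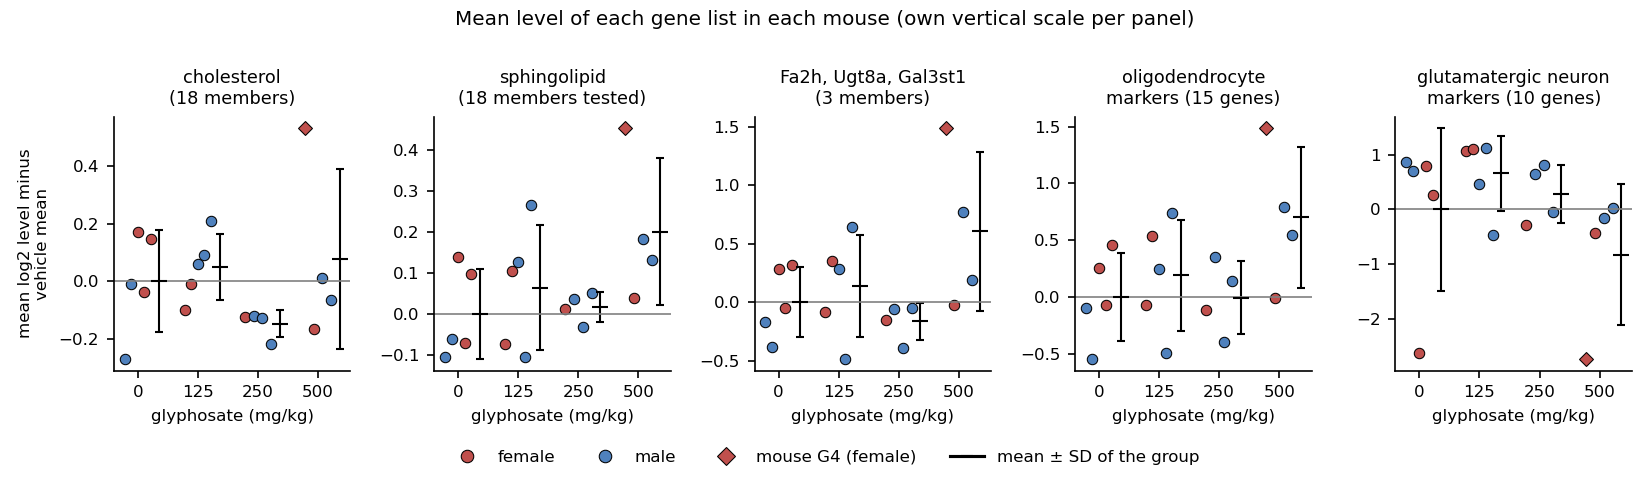
Mean log2 level of each gene list in each mouse, minus the vehicle mean, against the dose in mg/kg, with females in red, males in blue, G4 as a diamond and the group mean with its SD. G4 is the highest mouse in the cholesterol (0.53), sphingolipid (0.45), galactosylceramide (1.49) and oligodendrocyte (1.49) panels and the lowest in the glutamatergic neuron panel (-2.74), where vehicle mouse G9 stands at -2.62.

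Other marker lists gave the following medians of the dose slope, with 13.2% of all genes at an unadjusted p under 0.05. The 6 markers of oligodendrocyte progenitors had a median of 0.54 with 4 at an unadjusted p under 0.05, and without G4 0.38 with 1. The 10 markers of astrocytes, which make much of the brain's cholesterol, had a median of 0.11 with 4 such genes in both directions, and without G4 0.099 with 2. The 10 glutamatergic neuron markers had a median of -1.10, all negative, with 4 at an unadjusted p under 0.05, and without G4 -0.75, again all negative, with 0. The 9 GABAergic neuron markers had a median of -0.37 with 3 such genes, 2 positive and 1 negative, and without G4 -0.24 with 0. Their summed level went the other way, from 818 ± 44.1 CPM (SD, n = 5) with vehicle to 937 ± 107 CPM (SD, n = 4) with the high dose. The medians of microglia (-0.066), endothelial (0.06) and choroid plexus (-1.11) markers came with 0 genes at that level, and without G4 they were -0.11 with 1 gene, 0.25 with 0 and -0.51 with 0. No gene of these 7 lists was called by edgeR with or without G4, and 1 astrocyte gene was by DESeq2 with all mice. Their part in the members' values was not tested.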

How the data were processed

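RNA-seq was performed on half-brain tissue of 18 mice, with 1 stranded total RNA library per mouse after depletion of ribosomal RNA. Reads were mapped by the authors with STAR 2.7.5b (build GRCm38) and assigned to genes with featureCounts, and the raw counts per Entrez gene were deposited; quality reports came from MultiQC 1.12. The annotation and strand setting of the counting are not given in the sources used here. All 18 columns of the deposited table were used (0 left out). Groups and sexes came from the labels, each mouse being 1 replicate.

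Counts were normalised by TMM and filtered by dose group (minimum count 10), which kept 15863 genes. Dose, divided by 500 mg/kg, was fitted with sex as a covariate in edgeR 4.0.16 under R 4.3.3 (quasi-likelihood F test), and dose groups, curvature, sex and the difference of slope between sexes were fitted likewise. p-values were adjusted by Benjamini-Hochberg over all genes tested, with a threshold of 0.05. The code was tested on simulated data. Alternatives were DESeq2 1.42.0, voom of limma 3.58.1, sva 3.50.0, other filters and normalisations, and mice left out. Analyses of the high dose, Arsa and sex slopes without single mice, of slopes without G4, and with the number of the sample titles as a block, were added after seeing the data. log2 levels used a prior count of 2. The biological coefficient of variation was 25.8% at a depth of 3948096 to 11732885 counts per mouse.

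The members and gene lists were chosen with earlier results of these data known. Full statistics were given for members at an unadjusted p under 0.05 in the dose regression, and for Arsa and Srebf2, added after their values were seen. Of the other lists, genes past the threshold or, failing that, up to 3 with the smallest p were named. Gene positions and promoter windows came from RefSeq on GRCm38.p6. Exon lengths came from GENCODE on GRCm38, as the union of the exons of transcripts matched to a curated RefSeq transcript. Where no transcript was matched, all GENCODE transcripts of the gene were used.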

Additional observations from a re-analysis of the deposited data

Results flagged for a closer look

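A single mouse lay far from the rest of its group, by Dixon's criterion for groups of 4 or 5, in 9 of 144 groups of members and doses (6.25%), where chance gives about 1 in 20. Mouse G4 of the high-dose group accounts for 4 of the 9. It had 70.5 CPM of Hsd17b7 against 30.5 to 35.9 in the other 3 mice, and 229.5 CPM of Insig1 against 129.9 to 142. It also had 69.1 CPM of Kdsr against 52.3 to 54.6, and 33.9 CPM of Cers4 against 29.4 to 30.2. Mouse G79 of the same group had 29.2 CPM of Cers5 against 19.6 to 21.1. Low-dose mouse G45 had 74.7 CPM of Arsa against 42.6 to 48.4, and 18.8 CPM of Pmvk against 9.48 to 10.9. Low-dose mouse G29 was low for Mvd, with 5.85 CPM against 8.52 to 9.28. Middle-dose mouse G49 had 65.6 CPM of Kdsr against 50.8 to 53.3. G4 is also the library with the highest oligodendrocyte markers and the lowest glutamatergic neuron markers of the series, and the part of these in its values was not tested.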

How the results depend on the processing

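No member was called in any comparison under any of the alternatives run. The counts of members at an unadjusted p under 0.05 in the dose regression, 1 cholesterol and 6 sphingolipid by edgeR (13.2% of all genes), were 0 and 0 with 1 surrogate variable from sva (12% of all genes), without the high-dose mice (2.69%) and in males alone (7.81%), 0 and 1 with the oligodendrocyte level as a covariate (9.57%) and without G4 and G9 (11.7%), and 0 and 3 with dose as a rank (11.6%) and in females alone (5.35%). The sphingolipid count was 2 with limma-voom (12.7% of all genes) and 0 without the vehicle mice (15.7%). Leaving out each mouse in turn gave 0 to 1 cholesterol and 0 to 7 sphingolipid members, with 0 and 0 without G4, no cholesterol member without G1, G15 or G90, and 3 sphingolipid members without G5 or G87, while 8.23% (without G4) to 17.3% (without G9) of all genes stood at that level. The median cholesterol slope, 0.08, was -0.15 with the oligodendrocyte covariate, -0.23 without the high-dose mice and -0.14 (without G4) to 0.16 (without G79) with single mice left out. With the oligodendrocyte covariate the slopes reversed for Fa2h (-0.068), Gal3st1 (-0.087) and Cers2 (-0.066), and without the high-dose mice they were -0.21, -0.39 and -0.18. Cers5 was at -0.041 in males alone. For the high dose against vehicle, in an analysis added after seeing the data, leaving out G4, G9, G45 or G79 gave 0 to 2 cholesterol members (main 0; 1 without G9, 2 without G79) and 0 to 7 sphingolipid members (main 6; 0 without G4), beside 6.54% (without G4) to 15.4% (without G79) of all genes. Of all genes in the dose regression, edgeR called 46 with all mice, 2 without G4, 101 without G9 and 2 without both. The cause of these changes was not tested. No paired analysis was possible because the dose groups share no replicate numbers. The titles also open with a number that several mice share and whose meaning the labels do not give. With that number as a block, an alternative added after seeing the data, 0 cholesterol and 0 sphingolipid members had an unadjusted p under 0.05 (2.33% of all genes), 0 genes were called, and the median slopes were -0.11 and 0.15. In this fit the slopes of the 6 sphingolipid members had larger SEs than in the main one. Dose and sex change together within the numbers that hold several doses.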
